A study of Mus musculus with 2 samples.

Results

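The 10 genes described here encode receptors and ligands by which macrophages of the brain bind antibody and engulf particles. They include the Fc receptor genes Fcgr1, Fcgr2b and Fcgr3, and Fcer1g, which encodes the signalling chain of the activating receptors. The others are the receptor tyrosine kinase gene Mertk and its ligand Gas6, and the integrin subunit genes Itgam and Itgb2. The sialic acid receptor gene Cd33 and the scavenger receptor gene Msr1 complete the set. The genes were chosen by gene symbol, and all 10 were found among the 31053 genes of the deposited tables. The study set hippocampal cells of Mr1-/- mice beside those of Mr1+/+ mice, 7 months old and untreated, with 1 droplet library per genotype. Mr1 encodes an antigen-presenting molecule that is recognised by mucosal-associated invariant T cells. Dissociated cells were sorted as live and nucleated with DAPI and Draq5, and their transcripts were captured at the 5' end with a 10x Genomics kit, in which a UMI (unique molecular identifier) marks every captured molecule. The sources used here do not give the kind of Mr1 allele, the genetic background or the number of mice behind each library.

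Fc receptors bind the constant part of IgG. The activating receptors encoded by Fcgr1 and Fcgr3 need the common gamma chain, encoded by Fcer1g, for surface expression and for signalling through its ITAM, a tyrosine motif that recruits the kinase Syk, whereas the receptor encoded by Fcgr2b carries an inhibitory motif. The TAM receptors, encoded by Tyro3, Axl and Mertk, recognise phosphatidylserine on dying cells through bridging ligands. Gas6 binds each of these receptors, and protein S (Pros1) binds those encoded by Tyro3 and Mertk. Itgam and Itgb2 together form complement receptor 3, CD33 is a sialic acid-binding lectin of the Siglec family, and MSR1 is a class A scavenger receptor. In the brain these receptors are best known from microglia, the resident macrophages that clear debris, dying cells and synapses.

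The sequence before the start of transcription was read for the members, because the genes fell into those detected almost wholly in microglia-like cells and the pair, Mertk and Gas6, shared with other cells. RefSeq promoters of the GRCm38.p6 build were matched by symbol for 8 of the 10 genes, and 250 bases before each start were searched on both strands. Only 1 promoter per gene was used, the first listed. The words searched were GAGGAA, the core of the site for PU.1, a transcription factor of macrophages (TTCCTC on the other strand), and GGGCGG, the core of the GC box bound by Sp1 (CCGCCC on the other strand). The words overlapped in none of the 8 promoters. GAGGAA stood in 4 of the 8 promoters, those of Fcgr1, Fcgr3, Itgam and Cd33, against 23.1% of all 27025 promoters taken in this way. It stood in neither the Mertk nor the Gas6 promoter, which held GGGCGG 3 and 4 times. GGGCGG stood in 3 of the 8, the third being Itgam with 1 match, against 32.9% of all promoters. 3 of the sequences with GAGGAA are given first, in the direction of transcription, with the word in capitals on whichever strand it was found.
Fcgr1 (chr3:96293970-96294219, minus strand): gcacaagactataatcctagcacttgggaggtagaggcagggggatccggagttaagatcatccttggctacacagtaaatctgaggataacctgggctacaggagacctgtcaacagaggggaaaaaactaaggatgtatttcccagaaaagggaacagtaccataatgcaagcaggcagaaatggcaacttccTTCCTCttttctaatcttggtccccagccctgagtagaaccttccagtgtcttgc
Fcgr3 (chr1:171059404-171059653, minus strand): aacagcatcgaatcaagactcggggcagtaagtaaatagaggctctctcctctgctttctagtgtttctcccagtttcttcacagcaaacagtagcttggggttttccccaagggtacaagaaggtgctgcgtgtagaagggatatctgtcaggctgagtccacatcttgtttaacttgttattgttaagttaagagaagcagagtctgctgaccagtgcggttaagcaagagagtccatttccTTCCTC
Itgam (chr7:128062390-128062639, plus strand): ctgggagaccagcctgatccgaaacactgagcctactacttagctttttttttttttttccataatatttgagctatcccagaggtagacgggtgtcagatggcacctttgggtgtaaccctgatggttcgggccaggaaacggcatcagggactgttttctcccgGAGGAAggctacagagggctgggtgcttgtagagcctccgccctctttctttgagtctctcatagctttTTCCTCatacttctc
The match began 55 bases before the start in Fcgr1 and 6 bases before it in Fcgr3. In Itgam the matches began 84 and 15 bases before the start, and in Cd33 the match began 226 bases before it. The stretches read for Fcgr2b, Fcgr3 and Cd33 lie inside the gene spans given below. Other starts of these genes were not searched, and the matches hold for the starts used. The Fcgr1 and Fcgr3 sequences share a run of 10 bases that covers the match, TTCCTTCCTC, which was found on either strand in 102 promoters (0.377%). It was picked as the longest run of the pair, as was done for every pair of the 8 sequences. Mertk and Gas6 also shared 10 bases (6.48% of promoters). Runs of 9 bases in other pairs were about as rare, from 0.241% (Fcgr2b and Itgam) to 0.414% (Fcgr3 and Fcer1g). Mertk and Gas6 are given with GGGCGG in capitals.
Mertk (chr2:128698665-128698914, plus strand): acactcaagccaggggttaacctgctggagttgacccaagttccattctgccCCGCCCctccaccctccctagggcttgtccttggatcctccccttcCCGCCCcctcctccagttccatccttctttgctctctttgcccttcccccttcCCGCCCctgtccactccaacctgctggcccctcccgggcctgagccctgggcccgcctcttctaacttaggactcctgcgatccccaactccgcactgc
Gas6 (chr8:13494536-13494785, minus strand): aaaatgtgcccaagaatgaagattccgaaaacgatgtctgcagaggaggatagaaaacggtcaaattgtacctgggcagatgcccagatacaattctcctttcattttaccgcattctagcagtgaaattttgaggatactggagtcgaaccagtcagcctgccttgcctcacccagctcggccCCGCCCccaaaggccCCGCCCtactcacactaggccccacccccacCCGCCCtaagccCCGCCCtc
In Mertk the matches began 198, 152 and 99 bases before the start, and in Gas6 66, 51, 20 and 8 bases before it. GC content was 63.6% in the Mertk sequence and 54.8% in that of Gas6, beside a median of 52% over all promoters, and ranged from 45.2% (Fcgr2b) to 54.8% (Fcer1g, the same as Gas6) in the other 6. Fcer1g and Fcgr2b held neither word. A match is a match of letters only, and no binding was measured.

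The libraries held 5347 Mr1-/- and 6410 Mr1+/+ barcodes with 18349132 and 23244575 UMIs. After filtering, 5107 Mr1-/- and 5992 Mr1+/+ cells remained, with a median of 2921 and 3162 UMIs per cell, and they formed 23 clusters that were named from marker genes. In these cells 2 UMIs of Mr1 itself were counted in Mr1-/- and 130 in Mr1+/+ cells. 44 cell barcodes occurred in both libraries, 39 of them among the kept cells. Each genotype has a single library and no replicate, and therefore no test was possible. Every interval below is a 95% interval for counting error alone, and animal, dissection, sort and library cannot be told apart from genotype.

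The class in which most of the members were read out, microglia-like cells, held 737 Mr1-/- and 616 Mr1+/+ cells with a median of 3860 and 4469.5 UMIs. All 10 microglia markers (among them P2ry12, Tmem119, Cx3cr1, Csf1r and Sall1) were detected in both of its clusters, and their summed level was 64718 CPM (UMIs per 1000000 UMIs of the class) in Mr1-/- and 64835 CPM in Mr1+/+ cells. Macrophages of the brain's borders carry many of the same receptors. 12 Mr1-/- and 11 Mr1+/+ cells of the class had at least 3 of 7 border macrophage markers such as Pf4, Mrc1, Cd163 and Lyve1, and in the remaining cells Cd163 and Lyve1 were at 0 UMIs in both libraries. Pf4 had 4 UMIs in the remaining Mr1-/- and 7 UMIs in the remaining Mr1+/+ cells, and Mrc1 had 7 and 11 UMIs. A further cluster of 49 Mr1-/- and 114 Mr1+/+ cells carried all 10 microglia markers but only 1040 and 1049.5 UMIs per cell at the median. It stayed unnamed because 2 neutrophil genes led it, S100a9 and S100a8, whose 269 and 235 UMIs all came from 1 Mr1-/- cell. Counting this cluster as microglia-like moved the log2 ratio of none of the 9 measured members out of its counting interval.

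Of the 10 genes, 7 were detected almost exclusively in microglia-like cells. Fcgr1, Fcgr2b, Fcgr3, Fcer1g, Itgam, Itgb2 and Cd33 had between 97.7% and 98.5% of their Mr1-/- UMIs there, and between 95.5% and 97.4% of their Mr1+/+ UMIs. Most of their other UMIs lay in the unnamed cluster that carried all 10 microglia markers. For Fcer1g, 14050 of 14266 Mr1-/- UMIs were in microglia-like cells and 187 in that cluster. In Mr1+/+ these were 12906 of 13421 and 460 UMIs. Fcer1g, the gamma chain gene, reached 3567 CPM in Mr1-/- and 3450 CPM in Mr1+/+ microglia-like cells, against 2.72 and 2.82 CPM in endothelial-like cells and 1.91 and 2.08 CPM in oligodendrocyte-like cells. A UMI is counted once per captured transcript whatever its length, but capture of the 5' end can differ between genes, so the levels of different members are not ranked.

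Droplets also take up free RNA, and the low counts in the other 9 named classes were set against it. The unnamed cluster with the microglia markers was not part of this check. If all UMIs of a member in another class came from microglial RNA, they would stand in the same ratio to the summed microglia markers as in microglia-like cells. For the 7 genes the counts in the other 9 named classes never exceeded that figure beyond counting error, in either library. The microglia markers themselves were at 66.2 to 254 CPM in the other classes for Mr1-/- and 83.5 to 287 CPM for Mr1+/+, with neuron-like cells at 66.2 CPM in Mr1-/- and 287 CPM in Mr1+/+. Shares of cells with a UMI show the same split: Fcer1g had a UMI in 99.6% of microglia-like Mr1-/- cells and in 99.5% of microglia-like Mr1+/+ cells, against 0.642% and 0.697% of endothelial-like cells, whose median depth was 2309.5 and 2449.5 UMIs.

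**Figure D1:**
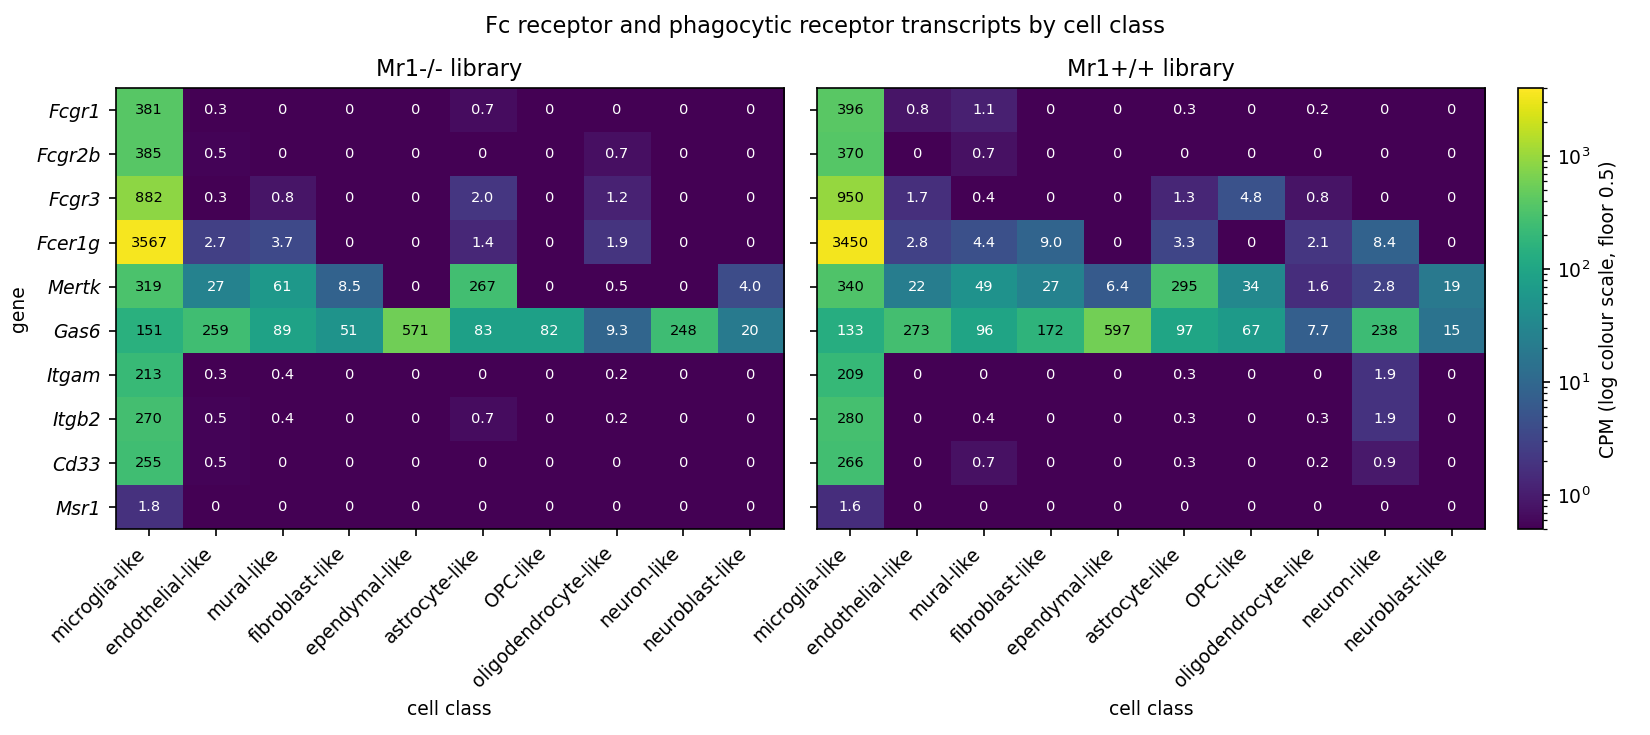
Level of each of the 10 genes (rows) in each named cell class (columns) as CPM, on a log colour scale with the value printed in each field, for the Mr1-/- library (left) and the Mr1+/+ library (right). Of the 10 genes, Gas6 alone has its highest level outside the first column, where Fcer1g reaches 3567 CPM in Mr1-/- and 3450 CPM in Mr1+/+ and Msr1 stays below 2 CPM.

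In microglia-like cells the Fc receptor genes differed little between the libraries. Fcgr1, the high-affinity IgG receptor, had 1502 UMIs in Mr1-/- and 1483 UMIs in Mr1+/+ cells, or 381 and 396 CPM. Its ratio of Mr1-/- over Mr1+/+ was 0.962 (0.895 to 1.03), so the counting intervals of the libraries overlapped. Fcgr2b, the inhibitory receptor, had 385 CPM in Mr1-/- and 370 CPM in Mr1+/+ cells, a ratio of 1.04 (0.965 to 1.12). Fcgr3, an activating receptor of lower affinity, had 882 CPM in Mr1-/- and 950 CPM in Mr1+/+ cells. Its ratio of 0.928 (0.885 to 0.973) was the only member ratio whose interval lay below 1. Fcer1g had 3567 CPM in Mr1-/- and 3450 CPM in Mr1+/+ cells, and its ratio of 1.03 (1.01 to 1.06) had an interval above 1.

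Fcgr3 and Fcgr2b are neighbours that share stretches of sequence, and Fcgr2b, Fcgr3 and Fcer1g all lie on chromosome 1, at 170958617 to 170976547, 171051174 to 171064935 and 171229572 to 171234365 of mm10. Mr1 lies on the same chromosome, at 155127277 to 155146814, so that these 3 genes are 15.8, 15.9 and 16.1 Mb from the mutated gene. Whether the mutant chromosome carries the same alleles of these genes as the Mr1+/+ chromosome is unknown from the labels, and its part in the ratios was not tested. In the GENCODE M21 annotation 9.58% of the 50-base words of Fcgr3 transcripts also occur in Fcgr2b, and 2.92% of those of Fcgr2b occur in Fcgr3. Reads from the shared stretch may therefore have been dropped. Fcgr1, on chromosome 3 at 96282909 to 96293969, shares no such word with any gene. Fcgr2b also overlaps an exon of the antisense gene Gm38204, which had 0 UMIs in both libraries.

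Mertk lies on chromosome 2 at 128698956 to 128802894 and Gas6 on chromosome 8 at 13465374 to 13494490. Mertk had 1257 UMIs in Mr1-/- and 1272 UMIs in Mr1+/+ microglia-like cells, or 319 and 340 CPM, a ratio of 0.938 (0.867 to 1.02). Gas6, its ligand, had 594 UMIs in Mr1-/- and 499 UMIs in Mr1+/+ cells, or 151 and 133 CPM. The Gas6 ratio of 1.13 (1.002 to 1.28) was the highest of the members, and the lower bound of its interval lay just above 1. Without the border macrophage-like cells, in which Gas6 stood at 255 CPM in 12 Mr1-/- cells and 202 CPM in 11 Mr1+/+ cells, the ratio was 1.13 (0.998 to 1.28).

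Itgam, the alpha chain of complement receptor 3, had 213 CPM in Mr1-/- and 209 CPM in Mr1+/+ microglia-like cells, a ratio of 1.02 (0.926 to 1.13). Itgb2, the beta chain, had 270 CPM in Mr1-/- and 280 CPM in Mr1+/+ cells, a ratio of 0.964 (0.884 to 1.05). Itgam counts are uncertain in level: 66.3% of the 50-base words of its transcripts also occur in Gm49368, an annotated protein-coding gene on the same strand that overlaps it, and reads on the shared part may have been dropped. Gm49368 itself was listed with 8 UMIs in Mr1-/- and 5 UMIs in Mr1+/+ microglia-like cells. Itgam lies on chromosome 7 at 128062640 to 128118491, Itgb2 on chromosome 10 at 77530252 to 77565708 and Cd33 on chromosome 7 at 43524216 to 43544428. Cd33 had 255 CPM in Mr1-/- and 266 CPM in Mr1+/+ cells, a ratio of 0.959 (0.878 to 1.05).

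Msr1, on chromosome 8 at 39581685 to 39642673, was barely detectable at this depth. It had 7 UMIs in 7 of 737 Mr1-/- cells and 6 UMIs in 6 of 616 Mr1+/+ cells, and no UMI in any other class of either library. Over the 1558 Mr1-/- and 1434 Mr1+/+ endothelial-like cells a count of 0 allows shares of up to 0.193% and 0.209% of cells with a UMI. The border macrophage-like cells held 0 UMIs of Msr1 in Mr1-/- and 1 in Mr1+/+.

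In all, 9 of the 10 members had at least 50 UMIs over both libraries in microglia-like cells and entered the comparison. On the scale of log2(CPM + 10), 4 of the 9 were above 0 and 5 below it, from -0.11 for Fcgr3 to 0.17 for Gas6. Their median was -0.05, beside -0.02 over all 8812 genes measured in these cells. None of the 9 differed by 25% or more on this scale, meaning that the higher library stood at least 25% above the lower one, whereas 5.02% of the 8812 genes did. The ratio of Gas6 stood at percentile 89.6 of these genes and that of Fcgr3 at percentile 28.3.

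**Figure D2:**
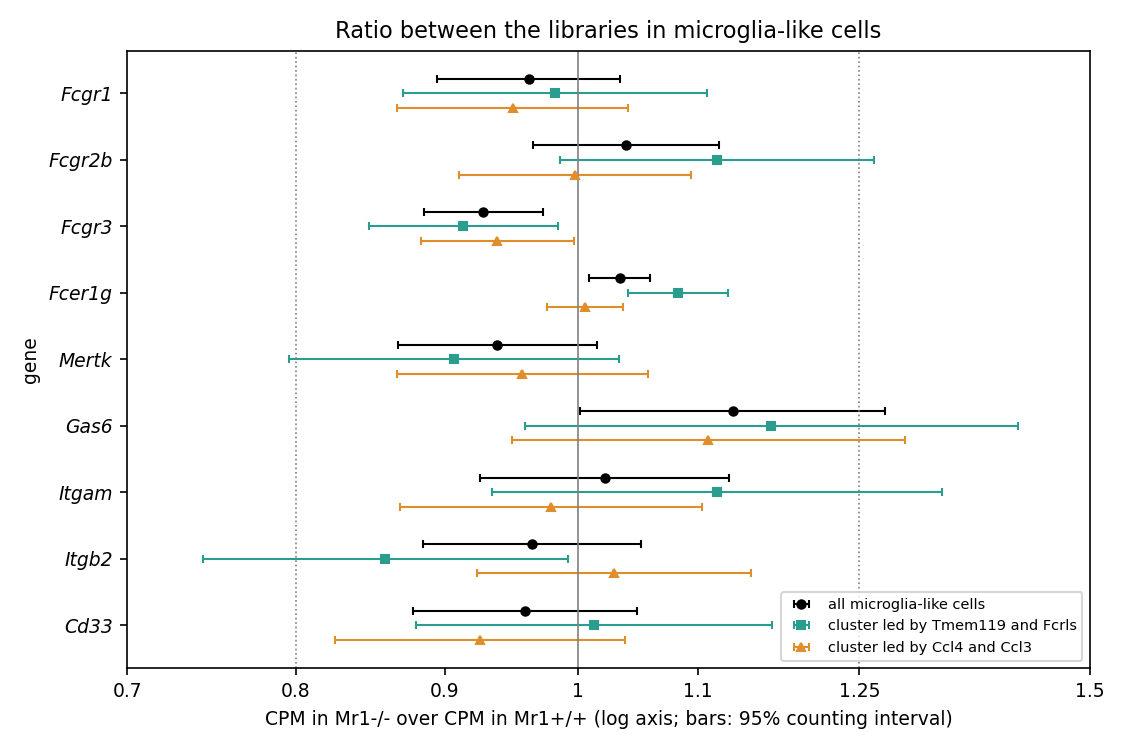
Ratio of CPM in Mr1-/- over Mr1+/+ cells for the 9 measured genes (rows; log axis), in all microglia-like cells and in each of the 2 microglia-like clusters; bars are 95% counting intervals and dotted lines mark a difference of 25% in favour of either library. No point lies beyond a dotted line, Fcgr3 lies left of 1 in each set, and Fcer1g and Gas6 lie right of 1.

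The class consisted of 2 clusters. 1 was led by the homeostatic genes Tmem119 and Fcrls (400 Mr1-/- and 354 Mr1+/+ cells), and the other by the chemokine genes Ccl4 and Ccl3 (337 and 262 cells, at a median depth of 6537 and 7701.5 UMIs, against 3337 and 3628.5 in the first). Both carried the 9 measured members. Fcgr3 was lower in Mr1-/- cells in each, with ratios of 0.913 (0.848 to 0.984) in the Tmem119-led and 0.938 (0.883 to 0.997) in the Ccl4-led cluster. Fcer1g had a ratio of 1.08 (1.04 to 1.13) in the Tmem119-led cluster, at 3550 CPM in Mr1-/- and 3278 CPM in Mr1+/+, and of 1.01 (0.976 to 1.04) in the Ccl4-led cluster. Itgb2 pointed in opposite directions: in the Tmem119-led cluster it had 243 CPM in Mr1-/- and 283 CPM in Mr1+/+ cells, a ratio of 0.859 (0.743 to 0.992). In the Ccl4-led cluster it had 286 and 278 CPM, a ratio of 1.03 (0.924 to 1.15). The difference between the clusters was not tested. Itgam was higher in the Ccl4-led cluster of either library, at 231 against 184 CPM in Mr1-/- cells and 235 against 165 CPM in Mr1+/+ cells. Ccl4 itself stood at 531 CPM in Mr1-/- and 263 CPM in Mr1+/+ cells of the Ccl4-led cluster, and its part in these values was not tested.

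Single microglia-like cells held UMIs of several members. To compare cells at equal depth each was thinned to 1500 UMIs, which left out 10 Mr1-/- and 8 Mr1+/+ cells. A thinned cell had UMIs of 4 members at the median (quartiles 3 and 5) in both libraries, and without thinning of 7 members in both. No microglia-like cell lacked all members. Of the 737 Mr1-/- cells 730 had a UMI of Fcgr1, Fcgr2b or Fcgr3, and 727 of these also had Fcer1g. The same held for 608 of 616 Mr1+/+ cells, 605 of which had Fcer1g. All 7 Mr1-/- and all 8 Mr1+/+ cells without a UMI of these 3 genes had Fcer1g as well, which was seen in nearly every cell. After thinning, Fcer1g was seen in 98.6% of Mr1-/- and 99.2% of Mr1+/+ cells, Fcgr3 in 71.9% and 77.5%, Fcgr1 in 44.7% and 43.6%, and Gas6 in 22.4% and 17.6%. The unthinned shares, at unequal depth, were 93.9% and 94.8% for Fcgr3 and 48.85% and 48.86% for Gas6. Thinning was a single random draw.

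The UMIs of the members were spread over many cells. The ratio of variance to mean of the thinned counts, which is 1 for pure counting, lay between 0.995 and 1.18 for the 9 measured genes in Mr1-/- cells and between 0.938 and 1.21 in Mr1+/+ cells. The 5 cells with most UMIs of a gene held from 3.06% (Fcer1g) to 5.01% (Itgam) of its total in the Mr1-/- library. In the Mr1+/+ library they held from 3.46% (Fcgr3) to 8.97% (Itgam), 1 cell alone having 21 UMIs of Itgam. Of the cells with a UMI of Itgam, 306 of 408 Mr1-/- and 270 of 339 Mr1+/+ cells also had Itgb2 (75% and 79.6%). Of the cells without Itgam, 59.0% and 63.2% had Itgb2, and depth differs between these sets of cells.

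**Figure D3:**
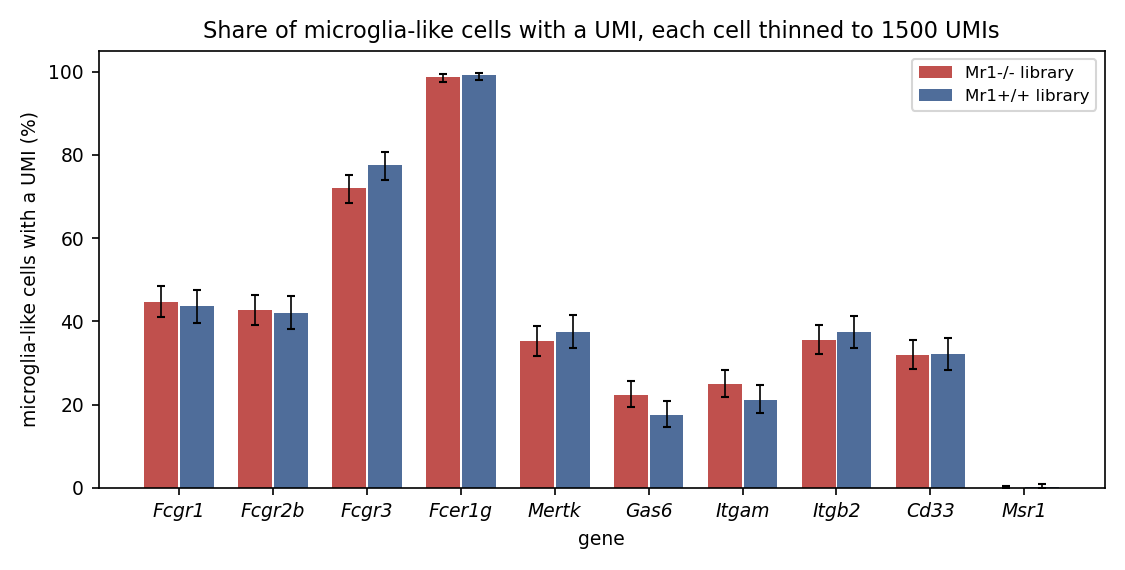
Percentage of microglia-like cells with a UMI of each gene after thinning each cell to 1500 UMIs, in Mr1-/- (left bar, 727 cells) and Mr1+/+ (right bar, 608 cells); error bars are exact 95% binomial intervals. Fcgr3 was seen in 71.9% of Mr1-/- and 77.5% of Mr1+/+ cells and Gas6 in 22.4% and 17.6%, while Msr1 was close to 0. Without thinning, Gas6 was seen in 48.85% of Mr1-/- and 48.86% of Mr1+/+ cells.

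Mertk was shared between microglia-like and astrocyte-like cells. Microglia-like cells held 65.4% of its UMIs in the Mr1-/- and 51.4% in the Mr1+/+ library, which also had more astrocyte-like cells (477 Mr1-/- and 956 Mr1+/+). In astrocyte-like cells Mertk had 391 UMIs in Mr1-/- and 897 UMIs in Mr1+/+, or 267 and 295 CPM, and 51.8% and 56.5% of the cells had a UMI. These levels lay below those of microglia-like cells, and the counting intervals of the 2 classes did not overlap within either library. If those UMIs came from microglial free RNA, 1.04 and 2.56 UMIs would stand in their place. The ratio in astrocyte-like cells was 0.905 (0.802 to 1.02). Mural-like cells, which are pericytes and smooth muscle of vessels, had 61.1 CPM in Mr1-/- and 48.8 CPM in Mr1+/+, and endothelial-like cells 27.2 and 22.3 CPM. Their ratios were 1.252 (0.984 to 1.60) and 1.22 (0.901 to 1.66), and both lay under the 25% mark after 10 CPM was added. Each passed it under 1 other setting, with a log2 ratio of 0.43 in mural-like cells thinned to 1500 UMIs and of 0.32 in endothelial-like cells weighted equally. Oligodendrocyte-like cells were near 0, with 2 UMIs in 957 Mr1-/- cells and 10 UMIs in 1436 Mr1+/+ cells.

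Mural-like cells were not uniform for Mertk. The cluster led by the contractile genes Tagln and Acta2 had 84.5 CPM in Mr1-/- and 64.5 CPM in Mr1+/+ cells, and the cluster led by Vtn and Kcnj8, genes of pericytes, had 28.9 and 21.0 CPM. Intervals of these clusters did not overlap within either library. Both values were higher in Mr1-/- cells, with counts of 112 against 103 UMIs and 28 against 20 UMIs.

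Gas6 was the most widely detected member. Its highest class level was in ependymal-like cells, the ciliated lining of the ventricles, with 571 CPM in 59 Mr1-/- cells and 597 CPM in 45 Mr1+/+ cells. 94.9% and 95.6% of those cells had a UMI. Endothelial-like cells followed with 259 CPM in Mr1-/- and 273 CPM in Mr1+/+, and neuron-like cells with 248 and 238 CPM, and the intervals of these classes overlapped each other. Microglia-like cells (151 and 133 CPM), mural-like cells (89.4 and 96.5 CPM), astrocyte-like cells (83.3 and 97.3 CPM) and precursors of oligodendrocytes (81.7 and 67.3 CPM, from 12 and 14 UMIs) came next. Oligodendrocyte-like cells had 9.31 CPM in Mr1-/- and 7.67 CPM in Mr1+/+. Fibroblast-like cells had 6 UMIs in 32 Mr1-/- cells and 19 UMIs in 29 Mr1+/+ cells, too few cells for the comparison.

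None of the Gas6 or Mertk ratios outside microglia-like cells had an interval that left out 1. Comparisons were made in classes of 50 or more cells per library, where Gas6 was measured in 5 classes besides microglia and Mertk in 3. Gas6 ratios were 0.947 (0.865 to 1.04) in endothelial-like, 0.927 (0.771 to 1.11) in mural-like, 0.856 (0.687 to 1.06) in astrocyte-like, 1.21 (0.775 to 1.89) in oligodendrocyte-like and 1.04 (0.850 to 1.28) in neuron-like cells. No member differed by 25% or more in any of them. The share of all measured genes that did was 7.69% in endothelial-like, 9.31% in mural-like, 10.9% in astrocyte-like, 3.77% in oligodendrocyte-like and 23.7% in neuron-like cells. In neuroblast-like cells no member reached 50 UMIs.

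Within the endothelium Gas6 varied by cluster more than by genotype. The cluster led by Plvap, a gene of fenestrated vessels, had 677 CPM in 50 Mr1-/- cells and 503 CPM in 28 Mr1+/+ cells, with 80% and 82.1% of cells positive. The clusters led by Lrg1 and Vwf (336 and 379 CPM) and by Gkn3 and Vegfc (325 and 333 CPM) were lower, and those led by Hmcn1 and Ctla2a (212 and 248 CPM) and by Slc26a10 (212 and 193 CPM) lower again. Among mural-like cells the Tagln-led cluster had 140 CPM in Mr1-/- and 136 CPM in Mr1+/+, and the Vtn-led cluster 26.8 and 28.4 CPM. Among neuron-like cells nearly all UMIs came from a cluster led by Reln, with 158 of 161 in Mr1-/- and 247 of 254 in Mr1+/+. That cluster also held most of the cells, 160 of 167 in Mr1-/- and 258 of 275 in Mr1+/+. Its level was 263 CPM in Mr1-/- and 266 CPM in Mr1+/+. The cluster led by Cck had 61.4 and 50.2 CPM, from 3 UMIs in 7 Mr1-/- cells and 7 UMIs in 17 Mr1+/+ cells. Gas6 overlaps Tmem255b on the opposite strand in an exon, and Tmem255b had 0 UMIs in microglia-like, ependymal-like and neuron-like cells of both libraries. In precursors of oligodendrocytes it had 28 UMIs in Mr1-/- and 24 UMIs in Mr1+/+ cells, more than Gas6 there, in mural-like cells 37 and 41 UMIs, and in endothelial-like cells 13 and 11 UMIs. Whether reads of one gene were counted for the other was not tested.

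**Figure D4:**
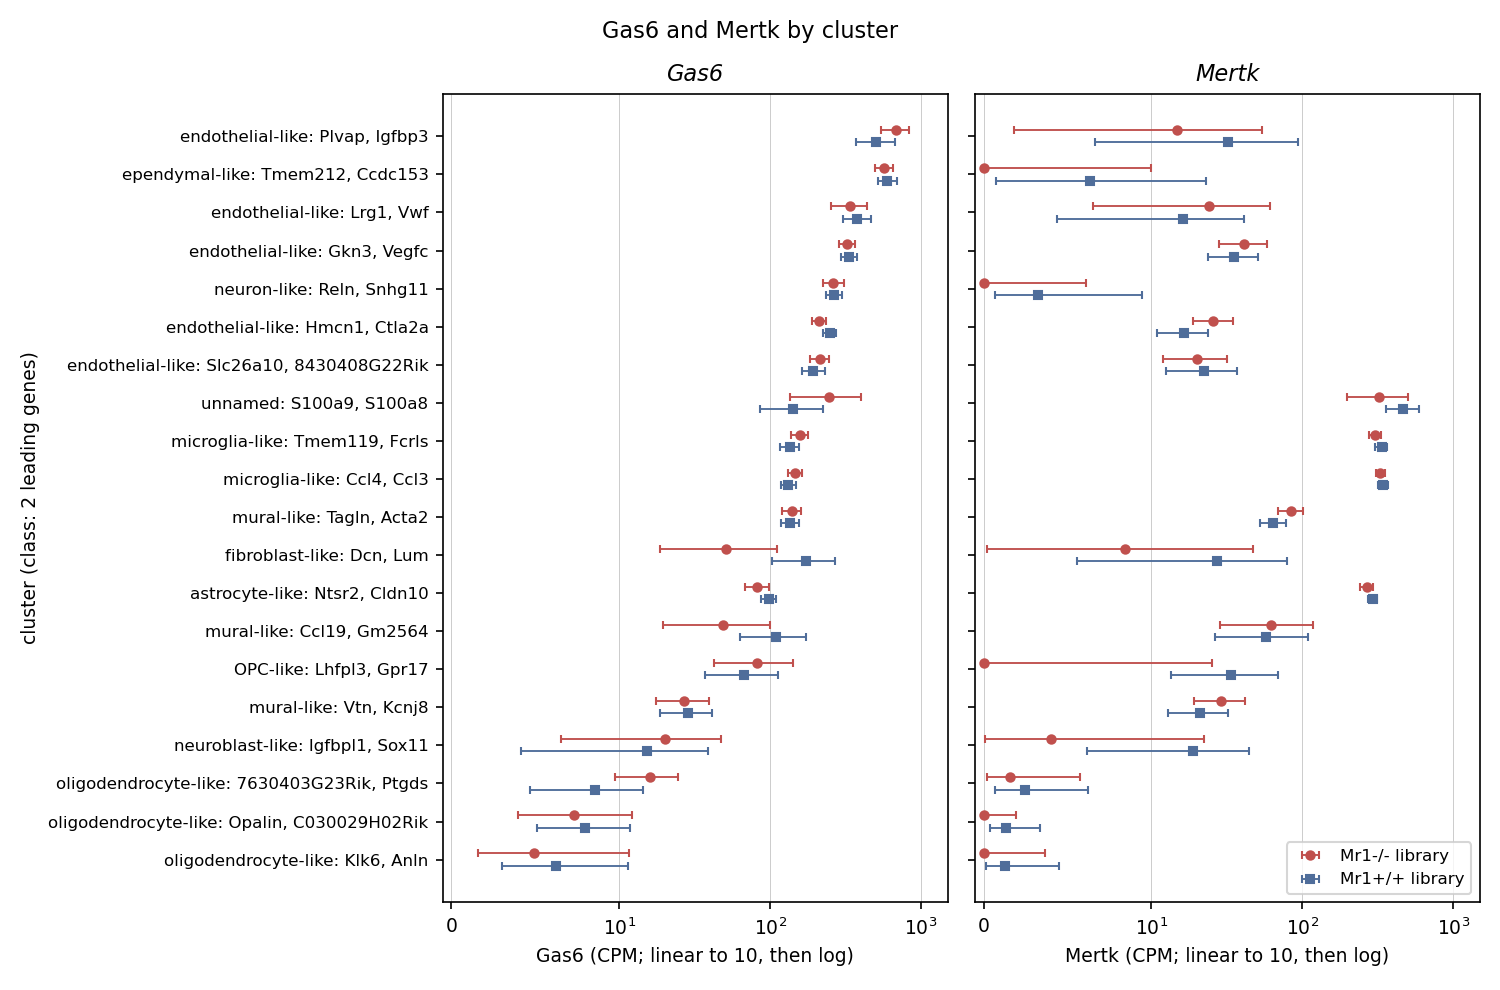
Gas6 (left panel) and Mertk (right panel) in CPM for the 20 clusters with at least 20 cells in each library, with the class and 2 leading genes of each; circles are Mr1-/-, squares Mr1+/+, bars 95% counting intervals. Gas6 is highest in the Plvap-led endothelial-like cluster (677 CPM in Mr1-/-, 503 CPM in Mr1+/+) and in ependymal-like cells, and Mertk lies between 267 and 343 CPM in the named microglia-like and astrocyte-like clusters.

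The other genes of the TAM system were found in several classes, and more than 1 receptor gene could be found in the same class. Axl, which shares its ligand with Mertk, had 160 CPM in Mr1-/- and 155 CPM in Mr1+/+ mural-like cells and 79.2 and 56.9 CPM in astrocyte-like cells, but only 3.30 and 2.67 CPM in microglia-like cells. Its ratio in astrocyte-like cells was 1.39 (1.09 to 1.77), and in mural-like cells 1.03 (0.897 to 1.19). Tyro3 was low in astrocyte-like cells, at 18.4 CPM in Mr1-/- and 11.5 CPM in Mr1+/+, with a ratio of 1.60 (0.933 to 2.72). Axl and Tyro3 thus both differed by 25% or more in astrocyte-like cells, as did 10.9% of all genes measured there. Tyro3 was highest in oligodendrocyte-like cells, with 159 CPM in Mr1-/- and 170 CPM in Mr1+/+, a ratio of 0.933 (0.845 to 1.03). The ligand gene Pros1 was highest in microglia-like cells among the classes compared, at 313 and 293 CPM. In these libraries microglia-like cells carried Mertk with Pros1 and Gas6, mural-like cells Axl and Mertk with both ligands, and astrocyte-like cells Mertk, Axl and some Tyro3 with both ligands. Oligodendrocyte-like cells carried Tyro3 with neither ligand above 10 CPM.

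**Figure D5:**
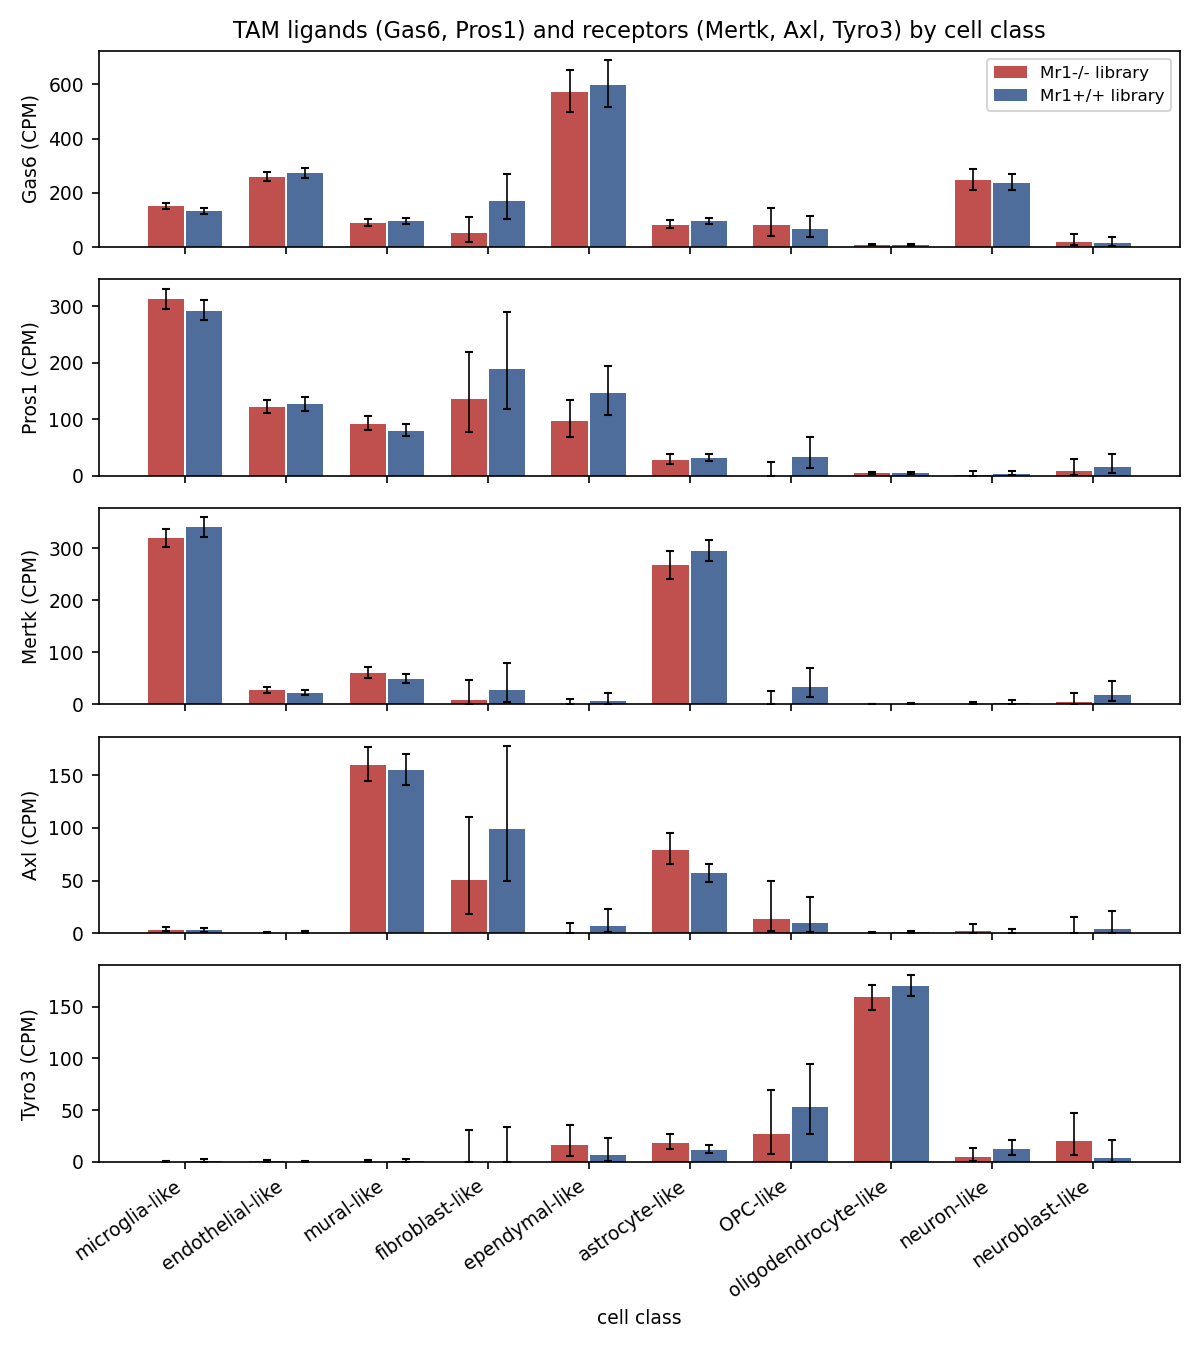
CPM of the TAM ligand genes Gas6 and Pros1 and the receptor genes Mertk, Axl and Tyro3 (panels from top to bottom) in each named cell class, in Mr1-/- (left bar) and Mr1+/+ (right bar); error bars are 95% counting intervals. Mertk peaks in microglia-like and astrocyte-like cells, Axl in mural-like cells (160 CPM in Mr1-/-, 155 CPM in Mr1+/+) and Tyro3 in oligodendrocyte-like cells (159 and 170 CPM).

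Genes that act with the members were read out in microglia-like cells from 6 lists. Of 14 other Fc receptor genes 4 were measured and none differed by 25% or more. Fcrls, an Fc receptor-like gene of microglia, had 2004 CPM in Mr1-/- and 2136 CPM in Mr1+/+ cells (ratio 0.938, 0.909 to 0.968). Fcgr4, an activating receptor that also pairs with the gamma chain, was low, at 9.39 and 8.55 CPM. Fcgrt, the neonatal Fc receptor that recycles IgG, had 114 CPM in Mr1-/- and 104 CPM in Mr1+/+ microglia-like cells and 674 and 676 CPM in endothelial-like cells.

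Of 17 genes of ITAM signalling 14 were measured, 8 above and 6 below 0 with a median log2 ratio of 0.01, and none differed by 25% or more. Tyrobp, the ITAM adaptor of TREM2, had 4474 CPM in Mr1-/- and 4295 CPM in Mr1+/+ cells (ratio 1.04, 1.02 to 1.06). Syk, the kinase recruited by ITAMs, had the lowest ratio of the measured genes of the list, with 73.4 CPM in Mr1-/- and 89.0 CPM in Mr1+/+ cells (ratio 0.824, 0.702 to 0.968). The Src family kinase gene Lyn had 673 and 657 CPM. Of 17 genes of inhibitory receptors and phosphatases 13 were measured and none differed by 25% or more, with a median of -0.00. The phosphatase gene Inpp5d, which opposes ITAM signals, had a ratio of 0.956 (0.891 to 1.03). Siglech, a Siglec of microglia, had a ratio of 1.06 (1.01 to 1.11). It was counted in this list but does not encode an inhibitory receptor.

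Of 21 genes of TAM receptors and phosphatidylserine recognition 11 were measured, 3 above and 8 below 0 with a median of -0.04. 1 of them differed by 25% or more: Lgals3, the galectin-3 gene, with 42 UMIs in Mr1-/- and 23 UMIs in Mr1+/+ cells (ratio 1.73, 1.02 to 3.02). Of all genes measured in microglia-like cells 5.02% differed by as much. Stab1 had a ratio of 0.868 (0.783 to 0.962), and Elmo1, an adaptor of engulfment, one of 0.917 (0.847 to 0.994). Of 10 partners and ligands of the beta2 integrin 5 were measured, all 5 below 0, and none differed by 25% or more. Their median was -0.07, beside -0.02 over all genes measured in these cells. The 5 included Fermt3, the activator kindlin-3, at 237 CPM in Mr1-/- and 255 CPM in Mr1+/+ cells. The other alpha chains were low in Mr1-/- and Mr1+/+ cells, with 2 and 1 UMIs of Itgal, 14 and 18 UMIs of Itgax and 6 and 0 UMIs of Itgad. Of 15 scavenger and pattern receptor genes 7 were measured, 2 above and 5 below 0 with a median of -0.05, and none differed by 25% or more. Lrp1, a receptor for lipoproteins and debris, had the highest ratio of that list at 1.16 (1.06 to 1.26). The lowest was that of Mrc1 at 0.755 (0.455 to 1.24), from 31 UMIs in Mr1-/- and 39 UMIs in Mr1+/+ cells.

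The genes most like each member were sought over 14 profiles, 7 classes in each of 2 libraries, as the smallest distance between values of log2(CPM + 10) among 11473 other genes. Fcer1g was nearest to Tyrobp (distance 0.707), then Cx3cr1 and Trem2. Fcgr1 and Fcgr2b shared their nearest gene, Tnfaip8l2 (0.232 and 0.298), and both had Ncf1 among their nearest 3. Fcgr3 was nearest to Siglech (0.423), Itgam to Rgs1 (0.271), Itgb2 to P2ry13 (0.229) and Cd33 to Upk1b (0.257). Mertk and Gas6 had no near match, with Tmem176a at 2.29 and Blvrb at 3.17, and Msr1, at or near 0 in all 14 profiles, was nearest to Tctex1d4 (0.254).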

How the data were processed

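The authors deposited raw UMI counts for each gene and barcode. Cell Ranger 3.1.0 is named per the file headers, and Cell Ranger 5.1.0, STAR and mm10 per the submitters' processing notes. The annotation release and the rule for keeping barcodes are not given in the sources used here. CPM, percent shares, ratios and log2 values were computed here from the deposited counts.

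Barcodes with at least 300 genes and at most 10% mitochondrial UMIs were kept (5278 Mr1-/- and 6327 Mr1+/+). Scrublet, run per library with an expected rate of 0.05, called 171 (3.24%) and 335 (5.29%) of them doublets, which were removed. Cells were scaled to a total of 10000, log transformed and clustered with scanpy 1.11.5 and leidenalg 0.10.2 (2000 variable genes, 30 components, 15 neighbours, resolution 1.0, seed 7, no integration). The 10 genes and the 6 lists of their partners were left out of the clustering genes, so no class rests on them. A cluster was named from fixed markers, each detected in at least 10% of its cells, with 3 or more needed, and stayed unnamed where its 10 leading genes went against the name. These names were rebuilt here and may differ from the study's own.

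UMIs were summed over the cells of a class and library. Counts carry exact Poisson intervals, shares exact (Clopper-Pearson) intervals and ratios exact conditional binomial intervals, all at 95% and for counting error only. A limit for a count of 0 is 3 counts. A gene was measured in a class with at least 50 UMIs over both libraries, and log2 ratios were taken after adding 10 CPM. The interval and the rule of 25% were run on simulated counts that held counting error alone, with planted changes well above 25%. Such counts cannot show how either behaves with variation between cells, animals or libraries, or for changes near 25%. Promoters came from the RefSeq table, and positions from GENCODE M21 of mm10, in which 30934 gene IDs were found. The 10 genes and all lists were chosen with earlier results of these data known. All 10 genes are given. Of each list, up to 4 measured genes with most UMIs and those with the highest and lowest log2 ratio could be named, and Axl, Tyro3, Itgal, Itgax, Itgad, and Fcgrt outside microglia-like cells were named after their values were seen. Intervals were computed with SciPy 1.17.1 in Python 3.11.15, and figures were drawn with matplotlib 3.10.9.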

Additional observations from a re-analysis of the deposited data

Results flagged for a closer look

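Barcodes that Scrublet called doublets were left out of the main comparisons, and they carried the members too. 171 such Mr1-/- barcodes held 679 UMIs of Fcer1g and 335 such Mr1+/+ barcodes held 1104, or 755 and 659 CPM. The ratio was 1.14 (1.04 to 1.26), an interval above 1 in barcodes outside the main comparisons. These CPM are over all UMIs of the doublets, whatever cells they mix. The share of doublets with a microglial cell was not held equal between the libraries, so the ratio is not one of levels in microglia-like cells. The doublet barcodes were kept under 1 alternative, without removal of doublets, where Fcer1g had a log2 ratio of 0.06 in microglia-like cells. The other 9 genes were not flagged there; Fcgr3 stood at 210 CPM in Mr1-/- and 188 CPM in Mr1+/+ doublets (ratio 1.12, 0.927 to 1.34).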

How the results depend on the processing

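The comparison in microglia-like cells was repeated under 15 alternatives, 11 of them listed with the design and 4 added after seeing the data (the unnamed shallow cluster counted as microglia-like, barcodes of both libraries left out, and each of the 2 microglia-like clusters alone). The number of members that differed by 25% or more was 0 under all 15, while the share of all measured genes past it ranged from 4.89% to 17.1%. The median log2 ratio of the members ranged from -0.05 to 0.04, and was above 0 when cells were thinned to 1500 UMIs (0.04) and in the cluster led by Tmem119 and Fcrls (0.02). Of the single members, Fcgr1, Fcgr3, Fcer1g, Mertk and Gas6 kept their sign in microglia-like cells under all 15. Fcgr2b (-0.00), Itgam (-0.03) and Itgb2 (0.04) changed sign in the Ccl4-led cluster, and Cd33 changed sign when thinned (0.06) and in the Tmem119-led cluster (0.02). Thinning moved Fcgr3 to -0.24 and Itgam to 0.19, both outside the counting intervals of the full counts, and the cause was not tested. The thinned counts came from a single draw and were smaller, and no interval was computed for their ratios. With at least 10 UMIs in place of 50, Msr1 entered with a log2 ratio of 0.02. Of 254 single ratios recomputed, 249 stayed inside the main counting interval, as did 483 of 528 levels. No paired analysis was possible because each genotype has 1 library, and for the same reason no library could be left out. Depth limits Msr1, and Gas6 and Mertk in classes of few cells.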
